A study of Mus musculus with 51 samples.

Results

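The albumin gene cluster is a stretch of mouse chromosome 5 that holds the genes of a family of secreted carrier proteins made by hepatocytes. The 4 genes described here are Alb (albumin), Afp (alpha-fetoprotein), Afm (afamin) and Gc (vitamin D-binding protein), taken by their symbols from the 33773 genes of the deposited expression matrix. Each had a value in all 21 RNA libraries. The study asked what happens to adult liver gene expression when the FoxA transcription factors, which open and mark chromatin at liver genes, are removed. Expression is given as RPKM, in which reads are divided by the length of the gene and by library depth. Levels are thus compared between genes per length and between libraries, without correction for a shift shared by many genes. Shifts of the median of all tested genes are given below for several comparisons.

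Hepatocyte RNA came from 4 groups. The triple null group (4 libraries) was from FoxA1L/L FoxA2L/L FoxA3-/- mice that received, at 8 weeks of age, an adeno-associated virus (AAV8) expressing Cre recombinase from the thyroid-binding globulin (Tbg) promoter, which is active in hepatocytes. The group labelled FoxA3 null (4 libraries) is taken here as the control that carried the same alleles and received a virus expressing GFP. It therefore lacked FoxA3 but kept FoxA1 and FoxA2, and both groups shared the FoxA3 deletion. The FoxA1/A2 lox group (3 libraries, lox below) had floxed FoxA1 and FoxA2 with no deletion. The FoxA1/A2 Cre alfp group (4 libraries, Cre alfp below) had FoxA1 and FoxA2 deleted with FoxA3 present. Alfp-Cre is a transgene driven by control elements of the albumin and alpha-fetoprotein genes themselves, and as background it acts from the embryonic liver onward, so this deletion is older than the viral one. An age, that at injection, is given for the triple null alone. Liver RNA came from 2 libraries labelled HNF4a control and 4 labelled HNF4a null, the latter described by the series as depleted in adult liver, by a method not given in the sources used here. The labels do not say whether replicates came from separate animals, so p-values measure the spread between these libraries, which may be technical.

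Alb, Afp, Afm and Gc descend from one ancestral gene, and their proteins share a fold built from disulfide-bonded helical domains. Albumin carries fatty acids, hormones and metals and holds the osmotic pressure of plasma. Alpha-fetoprotein is its fetal counterpart, abundant before birth and repressed soon after. Afamin carries vitamin E and binds Wnt proteins, and vitamin D-binding protein carries vitamin D sterols and scavenges actin. The enhancers of Alb and Afp were among the earliest places where FoxA binding in liver precursors was described. HNF4a and C/EBP factors also act on these genes.

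Along the chromosome, the protein-coding genes run Slc4a4, Gc, Npffr2, Adamts3, Cox18, Ankrd17, Alb, Afp, Afm, Albfm1 and Rassf6, in the RefSeq annotation of assembly GRCm38.p6. Alb, Afp and Afm thus lie side by side, while 4 other genes separate Gc from Alb. Albfm1, a further albumin family gene, follows Afm directly and appears in the expression matrix under its older symbol 5830473C10Rik. The promoters of the 4 genes are shown because FoxA is the factor removed and Alb and Afm moved alike in several comparisons below. Gc and Afp shared their direction in only some of these, such as Gc in the triple null against FoxA3 null and Afp in liver. Each run covers 150 bases before and 50 bases after the annotated start, 5′ to 3′ on the gene's strand, from RefSeq GRCm38.p6, and capitals mark TGTTTNC or its reverse complement, the core of a FoxA site.
Gc (chr5:89457849-89458048, minus strand): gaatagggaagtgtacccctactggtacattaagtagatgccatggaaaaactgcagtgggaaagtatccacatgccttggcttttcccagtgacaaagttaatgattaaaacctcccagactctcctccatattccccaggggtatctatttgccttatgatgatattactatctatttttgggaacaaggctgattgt
Alb (chr5:90460720-90460919, plus strand): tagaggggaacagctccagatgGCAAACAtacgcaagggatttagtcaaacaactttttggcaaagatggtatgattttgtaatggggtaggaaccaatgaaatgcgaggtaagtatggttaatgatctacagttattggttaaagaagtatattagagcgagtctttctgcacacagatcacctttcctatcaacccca
Afp (chr5:90490564-90490763, plus strand): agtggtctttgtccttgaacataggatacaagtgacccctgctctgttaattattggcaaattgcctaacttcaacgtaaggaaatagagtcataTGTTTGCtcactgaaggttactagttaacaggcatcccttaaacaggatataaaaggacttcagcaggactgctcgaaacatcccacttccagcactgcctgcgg
Afm (chr5:90518799-90518998, plus strand): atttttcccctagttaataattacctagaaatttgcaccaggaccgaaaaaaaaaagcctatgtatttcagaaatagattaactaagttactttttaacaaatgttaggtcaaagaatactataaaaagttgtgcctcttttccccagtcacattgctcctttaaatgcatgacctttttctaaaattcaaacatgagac

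Motifs were searched on both strands of the promoters of the 4 genes and of Albfm1, and the share of promoters holding each is given over 32851 mouse promoters of the same length (300 bases, from 250 before to 50 after the start). The FoxA core TGTTTNC was found in Alb, 128 bases before the start on the opposite strand, and in Afp, 55 bases before it. No match to these letters was found within the 300 bases of Afm, Gc or Albfm1, and 20.5% of all promoters held one. The C/EBP pattern TTGCNNAA occurred in the same 2 genes, 94 bases before the Alb start on the opposite strand and 89 before the Afp start, against 10.8% of all promoters. AAAGTCCA, an HNF4 core, had no match in any of the 5 and occurred in 1.25% of promoters. The nuclear receptor motif AGGTCA (16.3% of promoters) occurred in Afm 44 bases before the start and, on the opposite strand, 21 after it. TATAAA (13.6% of promoters) was present in Afp, Afm and Albfm1, at 7, 30 and 23 bases before the annotated start. None of these patterns overlapped another of those searched. These matches describe letters in short windows and were not joined to binding data.

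The libraries were first checked against their labels. Foxa2 was 0.243 to 0.470 RPKM in the triple null against 11.1 to 20.6 in FoxA3 null, and Foxa1 was 3.04 to 3.63 against 6.14 to 10.1. Foxa3 did not exceed 0.0114 RPKM in either group, and was 19 to 34.5 in lox and Cre alfp. In Cre alfp, Foxa1 was 1.14 to 1.34 and Foxa2 0.991 to 1.26 RPKM, below every lox library. Hnf4a went against its label: the libraries labelled HNF4a null held 487 to 545 RPKM of it and their controls 118 to 126. Gene-level RPKM do not show which parts of Hnf4a were read, so this gene checks neither the labels nor the deletion, and directions in the liver comparison below are those of the labels. The authors' deposited table of this comparison also gave Hnf4a as higher, by 1.73 (SE 0.12). Other values did separate the 2 groups, such as the hepatocyte marker sum of 16012 to 17286 RPKM in control and 4507 to 5429 under the HNF4a null label. A further 11 genes were at 0 in all 8 libraries without FoxA3 and above 1 RPKM in all 7 hepatocyte libraries with it. FoxA3 genotype and any technical difference between these 2 sets of libraries cannot be told apart.

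Alb was the most abundant of the 4 genes in every group, followed by Gc, Afm and Afp. Mean Alb per length exceeded mean Gc by 9.37-fold in lox, 8.31-fold in FoxA3 null and 8.82-fold in Cre alfp. The excess was 4.83-fold in the triple null and 4.97-fold in HNF4a control, and it was 1.78-fold in the libraries labelled HNF4a null. Gc in turn exceeded Afm by 15.1-fold in Cre alfp to 115-fold in the libraries labelled HNF4a null. Afp was low in adult tissue but above 0 in all 21 libraries: mean Alb exceeded mean Afp by 11474-fold in the triple null and by 57437-fold in lox. Between the lowest and the highest group mean, Gc spanned 1.55-fold, Alb 4.34-fold, Afp 4.43-fold and Afm 4.9-fold.

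**Figure D1:**
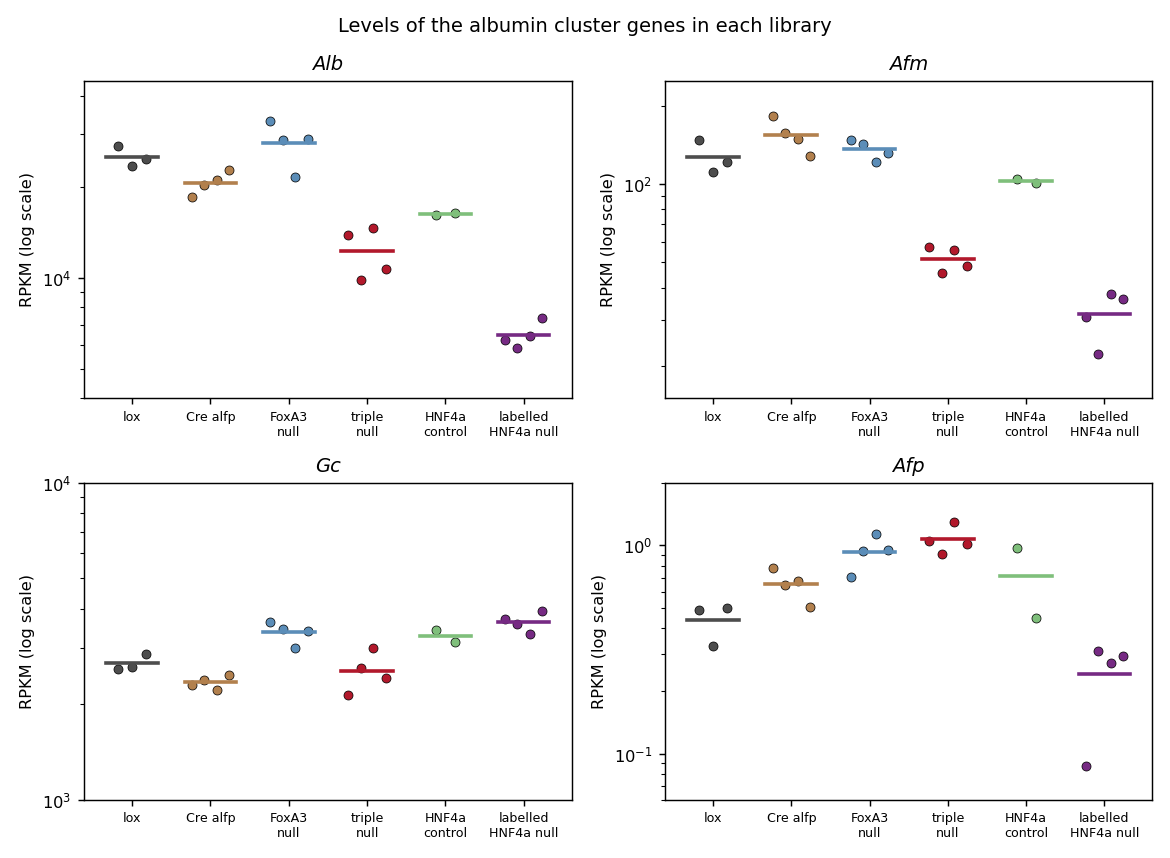
Level of Alb, Afm, Gc and Afp in each of the 21 RNA libraries, in RPKM on a log axis that differs between panels; points are libraries and bars are group means. Alb and Afm were lowest in the triple null and in the libraries labelled HNF4a null, Gc means stayed between 2345 and 3638 RPKM, and Afp means stayed between 0.241 and 1.07 RPKM.

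Alb, the main protein of plasma, was 33240, 28645, 21587 and 28973 RPKM across the 4 FoxA3 null libraries, and the 4 triple null libraries had 13895, 9868, 14628 and 10682 RPKM. Every triple null library was below every FoxA3 null library. The mean fell from 28111 ± 4827 to 12268 ± 2345 RPKM (SD, n = 4 each), which is 2.29-fold lower. On the log2(RPKM + 1) scale the difference was -1.2 (SE 0.16, 95% interval -1.53 to -0.87, limma adjusted p = 5.49e-05). Without the filter on low values the Alb call was lost at the same difference, here (limma adjusted p = 0.093), in the interaction (0.512), against lox (0.140), against Cre alfp (0.258) and in liver (0.0719). It was kept in all 5 when the variance trend was dropped as well. By group mean Alb still ranked 14th among all genes in the triple null, against 3rd in FoxA3 null.

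Afm, the vitamin E carrier, was 149, 143, 122 and 132 RPKM in FoxA3 null and 57.3, 45.4, 55.7 and 48.3 RPKM in the triple null. The groups did not overlap. Its mean was 137 ± 11.8 in FoxA3 null and 51.7 ± 5.72 RPKM in the triple null (SD, n = 4 each), 2.64-fold lower, with a log2 difference of -1.39 (SE 0.13, 95% interval -1.67 to -1.11, limma adjusted p = 2.28e-06). The Afm to Alb ratio within libraries overlapped between the groups, with a log2 difference of -0.21 (two-sided exact permutation p = 0.143, n = 4 against 4). It did not overlap in 3 other hepatocyte comparisons, at -0.81 in the triple null minus Cre alfp (exact permutation p = 0.0286), -0.24 in the triple null minus lox (exact permutation p = 0.0571) and 0.57 in Cre alfp minus lox (exact permutation p = 0.0571).

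Gc, the vitamin D carrier, was 3636, 3464, 3013 and 3411 RPKM in FoxA3 null and 2139, 2604, 3003 and 2412 RPKM in the triple null. The highest triple null library lay just below the lowest FoxA3 null library. The log2 difference was -0.42 (SE 0.11, 95% interval -0.66 to -0.18, limma adjusted p = 0.0109), from 3381 ± 263 to 2540 ± 363 RPKM (SD, n = 4 each), 1.33-fold lower. Fitted on these 2 groups alone, the same difference missed the threshold, with a limma adjusted p of 0.0501.

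Afp, the fetal albumin, was 0.705, 0.938, 1.13 and 0.952 RPKM in FoxA3 null and 1.06, 0.913, 1.29 and 1.02 RPKM in the triple null. The 2 groups overlapped, and the log2 difference was 0.10 (SE 0.11, 95% interval -0.13 to 0.33, limma adjusted p = 0.512). All 4 genes were tested in hepatocytes, but Afp passed the filter on low values (at least 1 RPKM in at least 3 libraries) through only 4 libraries, 3 of the triple null and 1 FoxA3 null. In the comparison of the triple null with FoxA3 null, Alb, Afm and Gc passed with lower values, where 12.3% of the 11500 tested genes passed with lower values and 29.7% in either direction. Since that background is large, the count of passing members says little by itself. Alb and Afm also exceeded an absolute log2 difference of 1 in the lower direction, as did 3.95% of the tested genes. The exact permutation test over these libraries gave p = 0.0286 for Alb, Afm and Gc, the smallest that 4 against 4 libraries allow.

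Markers of other cell types moved with this comparison. The summed level of 8 hepatocyte markers overlapped, at 20154 to 23845 RPKM in the triple null and 22942 to 33422 in FoxA3 null. That sum includes Ttr, which was 70.9 to 106 RPKM in the triple null and 3719 to 5799 in FoxA3 null. The sum of 7 endothelial markers was 7.04 to 13.6 against 26.4 to 39.6 RPKM, and that of 5 neutrophil markers was 9.0 to 109 against 0.717 to 1.65, with the defining marker Ly6g at 0 in both groups. The erythroid sum (5 markers) was 5.94 to 21.7 against 33 to 47.3 RPKM. All 6 lymphocyte markers were under 1 RPKM in both groups. The part of these differences in the results for the cluster was not tested. In bulk RNA, fewer hepatocytes, less RNA per hepatocyte and changes of the marker genes themselves cannot be told apart.

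**Figure D2:**
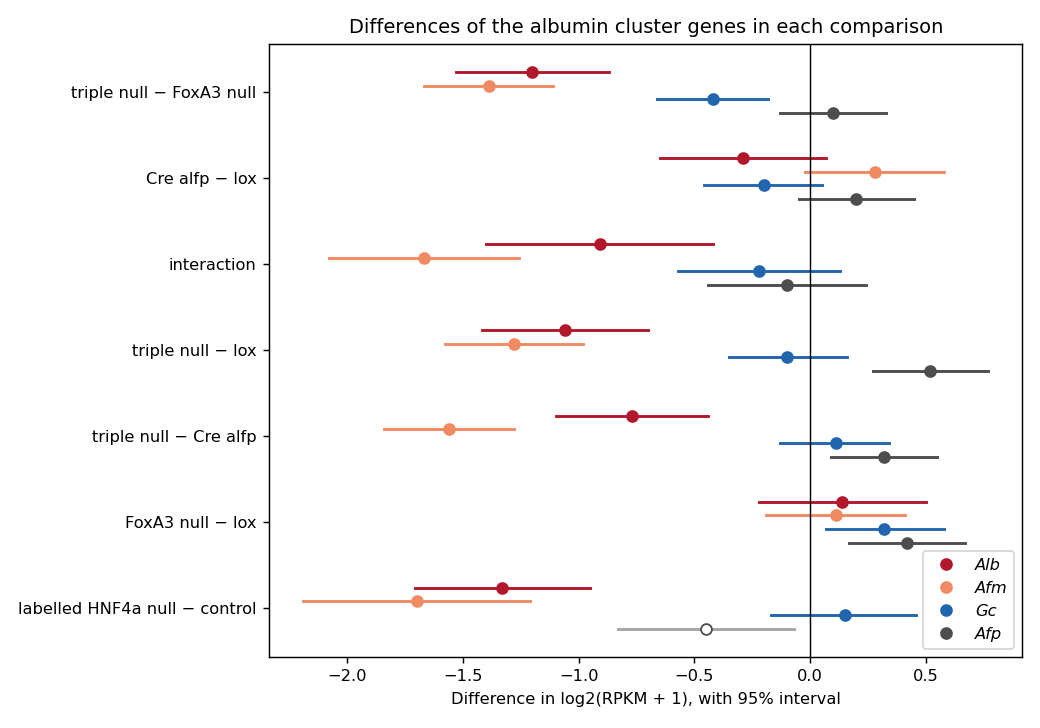
Difference in log2(RPKM + 1) for Alb, Afm, Gc and Afp in each of the 7 comparisons, as points with 95% intervals from the limma fits; the open point is Afp in liver, which was below the filter and comes from the fit without a filter. Alb and Afm lie left of 0 in each comparison of the triple null or of the libraries labelled HNF4a null, while their intervals include 0 in Cre alfp minus lox.

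With FoxA3 present, deletion of FoxA1 and FoxA2 gave no passing difference in any of the 4 genes. Alb was 27355, 23575 and 24878 RPKM in lox and 18539, 20315, 21123 and 22769 RPKM in Cre alfp. Every Cre alfp library was lower, but the log2 difference of -0.29 (95% interval -0.65 to 0.07) did not pass (limma adjusted p = 0.402). These values allow a decrease of Alb of up to 0.65 on the log2 scale, so a smaller loss was not resolved.

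Afm in Cre alfp was 184, 158, 149 and 129 RPKM, overlapping with 148, 112 and 122 RPKM in lox. Its difference was 0.28 (95% interval -0.02 to 0.58, limma adjusted p = 0.309), with the higher mean in Cre alfp. Gc was 2591, 2617 and 2882 RPKM in lox and 2307, 2383, 2215 and 2473 RPKM in Cre alfp, without overlap. The Gc difference of -0.20 (95% interval -0.46 to 0.05) did not pass across genes (limma adjusted p = 0.415), although the two-sided exact permutation test of Gc alone gave p = 0.0286, the smallest possible. After quantile normalization the Gc difference was 0.

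Afp was 0.490, 0.329 and 0.501 RPKM in lox and 0.781, 0.643, 0.675 and 0.508 RPKM in Cre alfp. The lowest Cre alfp library was just above the highest lox library, and the difference was 0.20 (95% interval -0.05 to 0.45, limma adjusted p = 0.409). So 0 of the 4 genes passed where 5.46% of the 11500 tested genes did (limma). In the limma fit, 0 of the 4 had an unadjusted p under 0.05.

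The interaction, the triple null difference from FoxA3 null minus the Cre alfp difference from lox, tests whether the response to FoxA1 and FoxA2 loss differed with FoxA3. It was -1.67 for Afm (SE 0.19, 95% interval -2.08 to -1.26, limma adjusted p = 5.71e-05) and -0.91 for Alb (SE 0.23, 95% interval -1.40 to -0.42, limma adjusted p = 0.017), the latter with an adjusted p of 0.512 in limma without the filter. Both values were thus more negative in the arm without FoxA3, against 6.17% of tested genes that passed in this direction and 14.4% in either. Gc (-0.22, limma adjusted p = 0.392) and Afp (-0.10, limma adjusted p = 0.721) did not pass. The route and time of deletion differ between the arms as well as FoxA3 (virus in the adult against a transgene active from the embryo), so the interaction cannot assign the difference to FoxA3. The arms also differ in the Foxa1 that remained, 3.04 to 3.63 RPKM in the triple null against 1.14 to 1.34 in Cre alfp. Hepatocyte markers summed to 33148 to 42898 RPKM in Cre alfp, above 28920 to 30942 in lox, whereas they overlapped between the triple null and FoxA3 null. Erythroid markers summed to 14.9 to 29.2 in Cre alfp against 81.3 to 90.8 RPKM in lox. The part of these shifts in the comparison of Cre alfp with lox and in the interaction was not tested.

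In FoxA3 null minus lox, FoxA1 and FoxA2 were present on both sides. Alb (0.14, limma adjusted p = 0.540) and Afm (0.11, limma adjusted p = 0.567) had no passing difference. After quantile normalization Alb passed at 0.75 (limma adjusted p = 0.0188), and after median scaling it was 0.02 (limma adjusted p = 0.941). FoxA3 null is taken as a group given a GFP virus, and no virus is named for lox, so FoxA3 genotype, the virus and any technical difference between the sets of libraries with and without FoxA3 cannot be told apart here. Afp was higher in every FoxA3 null library than in every lox library, by 0.42 on the log2(RPKM + 1) scale (limma adjusted p = 0.0139), or 2.12-fold between the means of 0.440 ± 0.0960 (SD, n = 3) and 0.932 ± 0.175 RPKM (SD, n = 4). Afp passed the filter only through triple null and FoxA3 null libraries, so this gene was kept by groups where it is high. In the fit without a filter the difference was also 0.42 (limma adjusted p = 0.0104). Without the second lox library the Afp difference was 0.36 and did not pass (limma adjusted p = 0.0671). Gc was higher by 0.32 and just passed (limma adjusted p = 0.0484), a call lost under most alternatives, with 0.20 after median scaling (limma adjusted p = 0.118). In this comparison 34.8% of the tested genes passed in either direction and 21.7% with higher values, and the median of all tested genes was shifted by 0.103, so relative to that median the differences were 0.32 for Afp and 0.22 for Gc. The erythroid sum was 33 to 47.3 RPKM in FoxA3 null against 81.3 to 90.8 in lox, and its part in these differences was not tested.

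The triple null was also set against lox and Cre alfp, comparisons that share the triple null libraries and cross the FoxA3 split. Against lox, Afm was lower by 1.28 on the log2 scale (limma adjusted p = 7.99e-06) and Alb lower by 1.06 (limma adjusted p = 0.000213), while Afp was higher by 0.52 (limma adjusted p = 0.00264). As in FoxA3 null against lox, Afp had entered the test only through libraries without FoxA3, and without the filter its difference was also 0.52 (limma adjusted p = 0.00143). The size depends on the pseudocount for so low a gene: with 0.1 in place of 1, Afp was higher by 1.12 than in lox (limma adjusted p = 0.00225), and FoxA3 null exceeded lox by 0.93 (limma adjusted p = 0.0107) and the triple null exceeded Cre alfp by 0.64 (limma adjusted p = 0.0344). Gc did not pass (-0.10, limma adjusted p = 0.541). Of all tested genes, 42.5% passed in this comparison, 14.8% with lower and 27.7% with higher values.

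Against Cre alfp the values were -1.56 for Afm (limma adjusted p = 6.29e-07), -0.77 for Alb (limma adjusted p = 0.00143), 0.32 for Afp (limma adjusted p = 0.0259) and 0.11 for Gc (limma adjusted p = 0.468), with 41.2% of genes passing, 14.4% lower and 26.9% higher. Here too Afp had entered only through libraries without FoxA3, and without the filter its difference was also 0.32 (limma adjusted p = 0.016). Hepatocyte markers summed to 20154 to 23845 RPKM in the triple null, below 28920 to 30942 in lox and 33148 to 42898 in Cre alfp. That sum includes Ttr, at 70.9 to 106 RPKM in the triple null, 6343 to 7000 in lox and 7080 to 8786 in Cre alfp. A sum without Ttr was not computed, so the separation may rest on this gene. Endothelial sums were 7.04 to 13.6 against 34.5 to 57.2 and 17.9 to 65.4 RPKM. Neutrophil sums were 9.0 to 109 against 0.734 to 1.43 and 1.2 to 3.61, with no signal of the defining marker Ly6g in any of these libraries. Erythroid sums were 5.94 to 21.7 against 81.3 to 90.8 and 14.9 to 29.2. Cholangiocyte sums were 4.92 to 8.05 against 8.55 to 20.7 in lox, and overlapped with 7.38 to 12.5 in Cre alfp. Their part in these differences was not tested. The medians of all tested genes were shifted by 0.132 and 0.125. Relative to them, Afp differed by 0.39 from lox and 0.20 from Cre alfp, and after median scaling the latter was 0.26 and no longer passed (limma adjusted p = 0.0637). It also did not pass without Cre alfp library 2, Cre alfp library 4 or triple null library 3, with the lowest value 0.27. The Gc value against Cre alfp turned to -0.02 under median scaling.

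In the order of the hepatocyte group means, Afp stood at 0.440 in lox, 0.652 ± 0.112 in Cre alfp, 0.932 in FoxA3 null and 1.07 ± 0.160 RPKM in the triple null (SD, n = 4 for Cre alfp and the triple null). FoxA3 null overlapped with the triple null, and Cre alfp with FoxA3 null, but lox did not overlap with Cre alfp. Afm was highest in Cre alfp (155 ± 22.8 RPKM), overlapping with FoxA3 null, which overlapped with lox. Alb was highest in FoxA3 null, overlapping with lox at 25269 ± 1920 RPKM (SD, n = 3). Gc in the triple null overlapped with both lox and Cre alfp.

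In liver, Alb was 16213 and 16386 RPKM in the 2 control libraries, while the 4 libraries labelled HNF4a null had 6244, 5883, 6421 and 7388. The labelled null libraries were all lower, with a mean of 6484 ± 643 (SD, n = 4) against 16299 ± 122 RPKM (SD, n = 2), 2.51-fold. The log2 difference was -1.33 (SE 0.16, 95% interval -1.71 to -0.95, limma adjusted p = 0.000843).

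Afm was 105 and 101 RPKM in control liver and, under the HNF4a null label, 30.8, 22.2, 37.6 and 36.0. It was lower in all of them, with a mean of 31.6 ± 6.92 (SD, n = 4) against 103 ± 2.77 RPKM (SD, n = 2), 3.26-fold. The log2 difference was -1.70 (SE 0.21, 95% interval -2.19 to -1.21, limma adjusted p = 0.000892). The Afm to Alb ratio within libraries differed by -0.40 on the log2 scale, without overlap (two-sided exact permutation p = 0.2, n = 4 against 2).

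Gc was 3419 and 3140 RPKM in control liver and, under the HNF4a null label, 3714, 3573, 3334 and 3934. The groups overlapped, and the difference of 0.15 (95% interval -0.17 to 0.46) did not pass (limma adjusted p = 0.373). The median of all tested genes was shifted by 0.337 here, and relative to it Gc was -0.19, Alb -1.67 and Afm -2.04. Under median scaling the sign of Gc turned, to -0.17.

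Afp was 0.971 and 0.449 RPKM in control liver and, under the HNF4a null label, 0.0867, 0.312, 0.272 and 0.294. Both control values exceeded all 4 others, with a 2.94-fold ratio of means, but the gene was below the liver filter and had no value in the main fit. The fit without a filter gave -0.45 (95% interval -0.83 to -0.07, limma adjusted p = 0.0977). Leaving out 1 library moved this value over -0.67 to -0.23. Of the 4 genes, 3 were therefore tested in liver and 2 passed, both lower, against 11.7% of the 12434 tested genes with lower values and 52.8% in either direction. With 4 against 2 libraries an exact permutation test cannot go below 0.0667, the value obtained for Alb, Afm and Afp.

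Hepatocyte and duct markers moved with the liver comparison. The 8 hepatocyte markers summed to 16012 to 17286 RPKM in control and 4507 to 5429 under the HNF4a null label. That sum includes Ttr, at 2869 to 3113 RPKM in control and 196 to 260 under the label. The 7 cholangiocyte markers summed to 112 to 210 under the label against 15.3 to 16.5 RPKM in control. The endothelial sum was 182 to 198 against 131 to 153, and the sum of 6 Kupffer cell and macrophage markers 107 to 137 against 85.8 to 96.8 RPKM. The stellate and fibroblast sum was 110 to 124 against 90.4 to 101 and the neutrophil sum 2.94 to 13.9 against 0.660 to 1.66 RPKM, while erythroid sums overlapped. Ly6g, the defining neutrophil marker, had no signal in either liver group. Lymphocyte markers were all under 1 RPKM. The part of these shifts in the lower Alb and Afm was not tested.

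Ratios within a library remove its scaling. Those of Gc to Alb and Afm were chosen after the values had been seen, so their p-values restate a pattern already observed in these libraries and are no independent support. The Gc to Alb ratio was 0.109 to 0.140 in FoxA3 null and 0.154 to 0.264 in the triple null, without overlap, a 1.72-fold difference (log2 0.78, two-sided exact permutation p = 0.0286, n = 4 against 4). Without any 1 FoxA3 null library the exact permutation p of Gc to Alb was 0.0571. Gc to Afm was 24.2 to 25.8 in FoxA3 null and 37.3 to 57.3 in the triple null, 1.98-fold (log2 0.99, two-sided exact permutation p = 0.0286, n = 4 against 4).

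The same 2 ratios were higher in the libraries labelled HNF4a null than in their controls, by 2.80-fold for Gc to Alb (0.519 to 0.607 against 0.192 to 0.211) and by 3.69-fold for Gc to Afm (88.7 to 161 against 31.0 to 32.5). For both the exact permutation p was 0.0667, the smallest possible with n = 4 against 2. Between Cre alfp and lox the libraries overlapped in both ratios. The log2 differences were 0.09 for Gc to Alb (exact permutation p = 0.457) and -0.48 for Gc to Afm (exact permutation p = 0.0857). Control liver, at 0.192 to 0.211, already lay above all lox, Cre alfp and FoxA3 null hepatocyte libraries in the Gc to Alb ratio. That last contrast is between preparations (liver against hepatocytes) and was not tested.

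**Figure D3:**
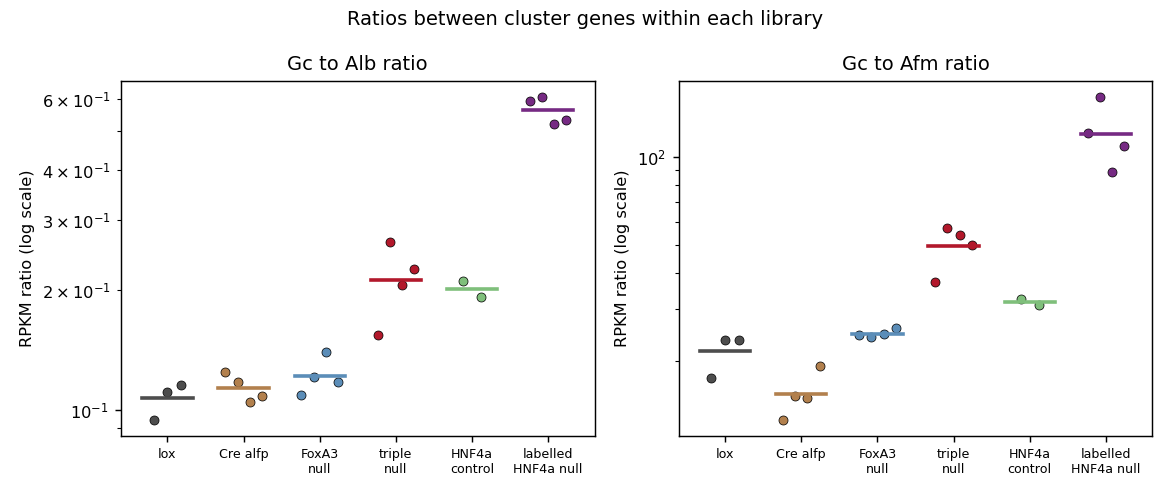
Ratio of Gc to Alb and of Gc to Afm in each of the 21 RNA libraries, RPKM over RPKM on a log axis; points are libraries and bars are group means. The triple null libraries lie between 0.154 and 0.264 for Gc to Alb, above the FoxA3 null libraries, and the libraries labelled HNF4a null lie highest in both panels.

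The gene next to Afm gave a larger difference than the 4 in the triple null against FoxA3 null and in liver. Albfm1, listed as 5830473C10Rik, was 19, 19.5, 14.7 and 17.0 RPKM in FoxA3 null and 0.417, 0.175, 0.427 and 0.658 RPKM in the triple null. Its mean was 41.9-fold lower and the log2(RPKM + 1) difference was -3.71 (SE 0.27, limma adjusted p = 1.91e-07). In liver it was 9.87 and 11.7 RPKM in control and, under the HNF4a null label, 0.342, 0.848, 0.669 and 0.705, 16.8-fold lower (log2 difference -2.85, limma adjusted p = 3.35e-05). It met the liver filter only through the 2 control libraries and the hepatocyte filter through no triple null library, so it was kept by groups where it is high. Without a filter the values were also -3.71 in the triple null (limma adjusted p = 4.80e-06) and -2.85 in liver (limma adjusted p = 0.000611).

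Between Cre alfp and lox, 5830473C10Rik overlapped, with 4.85, 3.83, 4.58 and 8.66 RPKM against 4.54, 5.72 and 14.0 RPKM, and the difference of -0.40 did not pass (limma adjusted p = 0.534). Without the third lox library, the high one, this difference was 0.04. The interaction was -3.31 (limma adjusted p = 9.59e-05), and without a filter it was also -3.31 (limma adjusted p = 0.000842). FoxA3 null exceeded lox by 1.16 (limma adjusted p = 0.00943), which was 0.88 without the first lox library and did not pass (limma adjusted p = 0.0548). This gene thus shared the directions of Alb and Afm in the triple null and liver comparisons.

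None of the other tested neighbours passed with lower values in the triple null against FoxA3 null. Cox18, a mitochondrial assembly factor between Gc and Alb, was higher by 0.55 (limma adjusted p = 0.0246). Ankrd17 (0.26, limma adjusted p = 0.173), Rassf6 (-0.24, limma adjusted p = 0.269) and the bicarbonate transporter Slc4a4 (-0.23, limma adjusted p = 0.411) did not pass, and Npffr2 and Adamts3 were below the filter. So 1 of the 5 tested neighbours was higher, 1 lower and 3 did not pass, with a median of -0.23 against 0.05 for all tested genes, of which 29.7% passed in either direction and 12.3% with lower values. In liver 2 of the 5 were higher, 1 lower and 2 did not pass. Of all tested genes there, 52.8% passed in either direction and 11.7% with lower values. Ankrd17 and Slc4a4 were both higher by 0.59 in liver (limma adjusted p = 0.00227 and 0.00745), or by 0.26 relative to the median of all genes. In Cre alfp minus lox 0 of 5 passed, against 5.46% of all tested genes (limma). Against Cre alfp, 2 of the 5 were lower in the triple null, 5830473C10Rik (-2.15) and Rassf6 (-0.47, limma adjusted p = 0.026). Among the 5, 0 were higher, against 14.4% of all tested genes lower and 26.9% higher. Without a filter 5830473C10Rik was also at -2.15 (limma adjusted p = 0.000286).

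**Figure D4:**
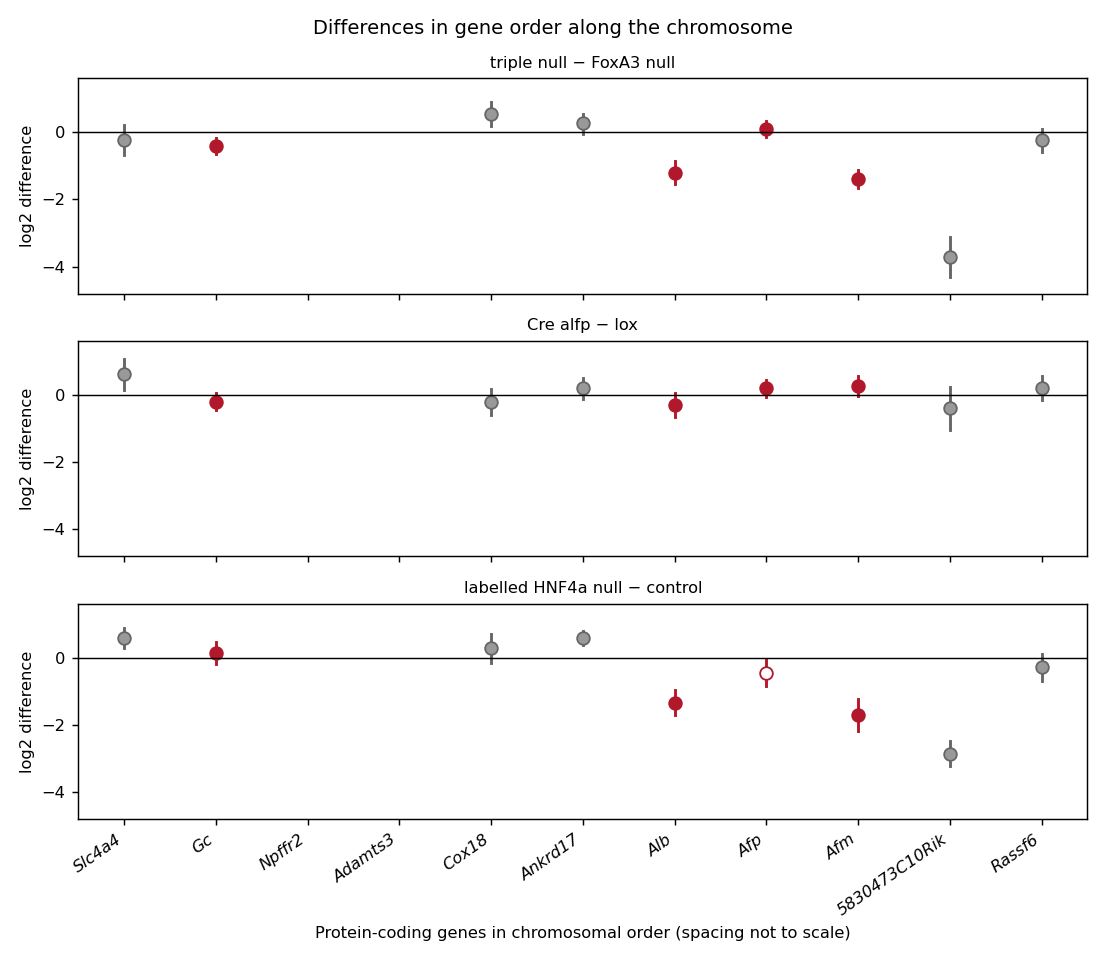
Difference in log2(RPKM + 1) with 95% interval for the protein-coding genes from Slc4a4 to Rassf6, in chromosomal order with spacing not to scale, in 3 comparisons; the 4 genes described are red, their neighbours grey, and the open point is Afp from the fit without a filter. In the upper and lower panels, Alb, Afm and 5830473C10Rik lie lower than Ankrd17 and Rassf6 on their 2 sides, Afp between them lies nearer to 0, and Npffr2 and Adamts3 have no value.

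Of 29 listed regulators of Alb or Afp, 28 were tested, and in the triple null against FoxA3 null 6 were higher, 3 lower and 19 did not pass (median -0.06), where 29.7% of all tested genes passed in either direction. Foxa2 (-3.39, limma adjusted p = 1.34e-07) and the Afp repressor Zbtb20 (2.13, limma adjusted p = 0.00333) had the largest differences. Hnf4a itself did not pass (-0.13, limma adjusted p = 0.658), nor did Zhx2, another Afp repressor (0.01, limma adjusted p = 0.991).

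Zbtb20 was 0.609, 4.28, 9.90 and 6.63 RPKM in FoxA3 null and 33.5, 23.5, 11.6 and 23.2 RPKM in the triple null. It was the FoxA3 null libraries that stood apart: lox was 21.9 to 23.2 RPKM, and FoxA3 null was lower than lox by 2.18 for Zbtb20 (limma adjusted p = 0.00576). The triple null did not pass against lox (-0.05, limma adjusted p = 0.941). Zhx2 was higher in both groups without FoxA3 than in lox, by 0.76 in FoxA3 null (limma adjusted p = 0.0165) and 0.77 in the triple null (limma adjusted p = 0.0116). Whether these levels bear on Alb or Afp was not tested.

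Between Cre alfp and lox, 2 of the 28 regulators were lower, the deleted Foxa1 (-1.76) and Foxa2 (-2.58), and 26 did not pass, where 5.46% of all tested genes passed. In liver, 8 regulators were higher, 4 lower and 16 did not pass, in a comparison where 52.8% of all genes passed. Hnf4a (2.09, limma adjusted p = 1.35e-05) was the largest difference, followed by Cebpa (-1.43, limma adjusted p = 9.57e-05), which encodes C/EBP alpha.

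Other carriers of the plasma were listed to place the cluster among proteins of like function. In the triple null against FoxA3 null, 7 of the 11 tested (of 12 listed) were lower, 2 higher and 2 did not pass, with a median of -1.07 against 0.05 for all tested genes, of which 12.3% passed with lower values and 29.7% in either direction. The largest differences were in Ttr, the thyroid hormone and retinol carrier transthyretin (-5.65, limma adjusted p = 3.52e-12), Apoa1, the main protein of high-density lipoprotein (-5.23, limma adjusted p = 3.72e-10), and Hp, the haemoglobin carrier haptoglobin (-2.70, limma adjusted p = 0.000297). Alb and Afm, at -1.2 and -1.39, lay near that median, and Gc, at -0.42, was less changed. Serpina7, which encodes thyroxine-binding globulin, was higher (1.67, limma adjusted p = 0.0273), as was Orm1 (0.92, limma adjusted p = 0.000208).

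Between Cre alfp and lox 3 carriers were lower and 8 did not pass, where 5.46% of all tested genes passed in either direction. In liver 3 were lower, 4 higher and 4 did not pass, with a median of 0.06 against 0.34, in a comparison where 52.8% of all tested genes passed and 11.7% with lower values. Serpina7 (4.05, limma adjusted p = 9.95e-06), Ttr (-3.71, limma adjusted p = 5.40e-06) and Apoh (-1.67, limma adjusted p = 7.85e-05), a phospholipid-binding glycoprotein, differed most. Apoh (-1.77, limma adjusted p = 4.66e-07) and Hpx, the haem carrier hemopexin (-2.30, limma adjusted p = 2.41e-07), were also lower in the triple null against FoxA3 null, and Hpx was the third lower carrier in liver (-1.44, limma adjusted p = 0.000279). Ttr, Apoh and Hpx were thus lower in both settings, as Alb and Afm were, while Apoa1 was lower in the triple null (-5.23) and did not pass in liver (0.42, limma adjusted p = 0.0611).

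Genes that handle the ligands or the recycling of these carriers were tested where they met the filter, 4 of 11. A value below the filter does not show absence, and Dab2, one of the other 7, is listed at 0 in all hepatocyte libraries, which in a file without counts can be a failed estimate. In the triple null against FoxA3 null, Cyp27a1, a sterol and vitamin D hydroxylase, was lower (-1.60, limma adjusted p = 2.87e-06), as was Fcgrt, the receptor that rescues albumin from degradation (-0.43, limma adjusted p = 0.00876). Ttpa, the intracellular vitamin E transfer protein, was higher (0.86, limma adjusted p = 0.00564), opposite to the vitamin E carrier Afm, and the remaining gene did not pass, where 29.7% of all tested genes passed. In liver, where 52.8% passed, Cyp2r1, the vitamin D 25-hydroxylase (-1.27, limma adjusted p = 0.00343), Ttpa (-1.12, limma adjusted p = 0.00239) and Fcgrt (-0.35, limma adjusted p = 0.0377) were lower and 1 did not pass. Between Cre alfp and lox 1 of the 4 was lower, where 5.46% of all tested genes passed.

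Fetal liver genes were looked at beside Afp. Of the 13 listed, 1 was tested in hepatocytes, Peg3, an imprinted gene. It did not pass in the triple null against FoxA3 null or in Cre alfp against lox. Its levels were 0.513 to 0.773 RPKM in the triple null and, without overlap, 0.940 to 3.67 in FoxA3 null. They were 2.44 to 9.55 in lox and 4.93 to 11.2 in Cre alfp. Peg3 met the filter through no triple null library, so it was kept by groups where it is high, and its tests against lox and Cre alfp are not used. In liver 4 were tested. H19 was 0.319 and 0.537 RPKM in control and 1.63 to 8.58 under the HNF4a null label (1.61, limma adjusted p = 0.0278), and Dlk1 was listed at 0 in both control libraries and at 0.336 to 1.03 RPKM under that label (0.81, limma adjusted p = 0.0161). Both met the filter only through the labelled null libraries, where they are high, so these calls give no independent support.

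The developmental range of the cluster is given by the authors' deposited tables, which hold log2 fold changes without values per library. In these tables the header does not line up with the values, so columns were read by position, and the direction of the table of triple null against hepatoblast was inferred from its values. In the authors' deposited table of hepatoblasts against adult hepatocytes, Afp was higher by 9.67 (SE 0.32), while Gc (-5.61, SE 0.54), Alb (-4.69, SE 0.44) and Afm (-3.64, SE 0.32) were lower. The fetal gene and the adult genes of the cluster thus lay far apart in opposite directions. Of the 13473 genes with a value in that authors' deposited table, 79.2% had an adjusted p under 0.05.

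In the authors' deposited table of newborn against adult hepatocytes, Afp was higher by 14.19 (SE 0.31), the 3rd highest value among 12176 genes, of which 63.3% had an adjusted p under 0.05. Alb (1.43, SE 0.13) and Afm (1.13, SE 0.17) were also higher in that authors' deposited table, and Gc was not different (-0.02, SE 0.11, authors' adjusted p = 0.896). The authors' deposited table of triple null against hepatoblast gave -8.78 for Afp (SE 0.19), 5.34 for Gc (SE 0.45), 3.46 for Alb (SE 0.46) and 2.12 for Afm (SE 0.26), with 81.2% of genes under 0.05. All 4 genes thus differed between the triple null and hepatoblasts, Afp in the opposite direction to the others. The hepatoblast comparisons in the authors' deposited tables share libraries, and the libraries of their adult reference are not given in the sources used here.

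**Figure D5:**
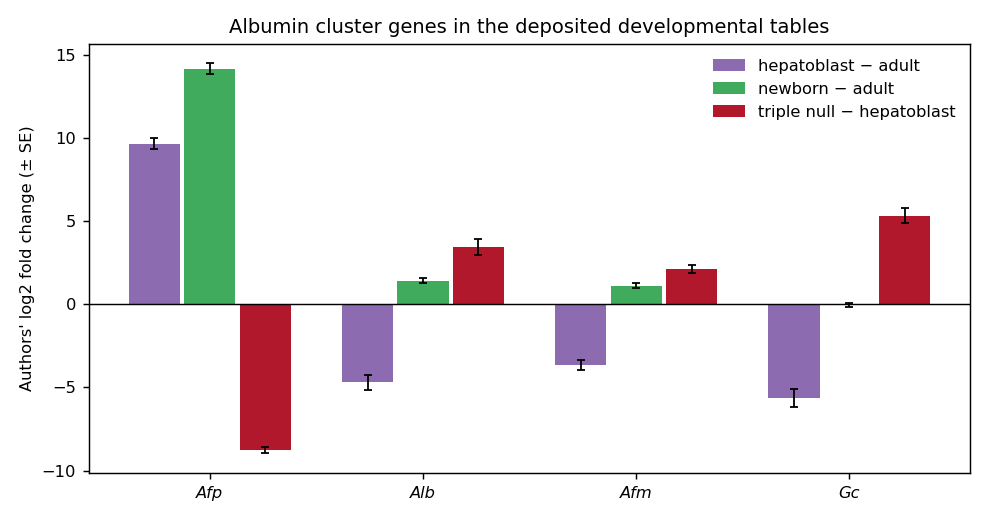
Log2 fold change of the 4 genes in the authors' deposited tables of hepatoblasts and newborns against adult hepatocytes and of the triple null against hepatoblasts; bars start at 0 and error bars are the authors' SE. Afp is the 1 gene above 0 in hepatoblasts, at 9.67, and below 0 in the triple null against hepatoblasts, at -8.78.

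The authors' deposited tables also cover the adult comparisons. In the authors' deposited table of triple null against FoxA3 null, Alb was -1.23 (SE 0.19), Afm -1.43 (SE 0.13), Gc -0.46 (SE 0.10) and 5830473C10Rik -5.50 (SE 0.25). Afp was -0.21 (SE 0.25, authors' adjusted p = 0.519) in that authors' deposited table, on a mean normalized count of 80.7, against 1103338 for Alb, 131407 for Gc and 5301 for Afm. For the libraries labelled HNF4a null against control, the authors' deposited table gave -1.75 for Alb (SE 0.11) and -2.11 for Afm (SE 0.26). That authors' deposited table gave -0.27 for Gc (SE 0.12, authors' adjusted p = 0.0517). All were lower than the RPKM values above, with the opposite sign for Gc. Relative to the median of all tested genes, the RPKM values were -1.67 for Alb, -2.04 for Afm and -0.19 for Gc, each with the authors' sign. Afp passed in that authors' deposited table, at -2.55 (SE 0.50, authors' adjusted p = 2.04e-06), on a mean normalized count of 16.3. The log2(RPKM + 1) scale used above shrinks the change of so low a gene, and its part in the smaller Afp value above was not tested. Against controls with no deletion, the authors' deposited table gave Gc as lower in the triple null (-0.28, authors' adjusted p = 0.0139), where the RPKM difference from lox did not pass, and Afp as higher (0.89, authors' adjusted p = 0.007). Against Cre alfp, Afp was 0.29 in the authors' deposited table and did not pass (adjusted p = 0.312), where the RPKM difference passed.

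Genes whose pattern lay nearest to each member were found by the mean absolute difference of centred log2(RPKM + 1) values over the 15 hepatocyte libraries, among genes with a mean of at least 5 RPKM. For Alb these were F2 (0.125), which encodes prothrombin, another abundant plasma protein, Gclm (0.164) and Gpr108 (0.164), where Alb ranged over 1.75 and the median gene lay at 0.53. For Afm they were Akap1 (0.164), Cmah (0.178) and Slco2a1 (0.181), over a range of 1.99. D6Wsu116e (0.069), Eefsec (0.084) and Tmem59 (0.087) were nearest to Gc, and Fam173b (0.072), Tmem223 (0.086) and Gnpat (0.086) to Afp. With the 6 liver libraries added, Alb itself was the 2nd nearest gene to Afm (0.258), after Slco2a1 (0.241). These libraries share their groups and scaling, so nearness is a description of the shared pattern.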

How the data were processed

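RNA was sequenced from mouse hepatocytes and liver, and 21 libraries in 6 groups were used; chromatin samples were not analysed here. The authors deposited RPKM values in 1 matrix of 33773 genes. A further 9 of its columns could not be tied to a sample by name and were left out. The submitters' processing notes name SAMtools, Cufflinks 2.2.1, DESeq2 and mm9, with no role given; the aligner and annotation are not given in the sources used here. The authors deposited 7 comparison tables with log2 fold changes, p-values and, per the file headers of some, a mean normalized signal (baseMean); in the hepatoblast, newborn, triple null against hepatoblast and Cre alfp tables the header stands 1 column to the left of the values, so the log2 fold change was read under lfcSE and its SE under stat, as inferred from the values; the direction of the triple null against hepatoblast table was inferred likewise. The p-value of the table against Cre alfp was adjusted here, and the sign of the table against undeleted controls was turned. Total depth is unknown, since no counts were used; per the labels, 1 library kit and sequencer served.

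Log2(RPKM + 1) values entered limma (version 3.58.1, R version 4.3.3; eBayes with a trend), in 1 fit of 15 hepatocyte libraries (at least 1 RPKM in at least 3) and 1 of 6 liver libraries (at least 2), with Benjamini-Hochberg adjustment over all tested genes. Passing means an adjusted p under 0.05. Two-sided exact permutation tests were run on single genes. The code was tested on simulated data. Members, lists and tests were chosen with earlier results of these data known. Named genes are the 4 members, all neighbours, 6 fixed regulators (Foxa1, Foxa2, Foxa3, Hnf4a, Zhx2, Zbtb20), up to 3 passing genes with the largest differences per list in 2 comparisons and the 3 nearest in pattern. Serpina7, Orm1, Apoh and Hpx in the triple null comparison, Apoa1 and Hpx in liver, Dab2 and Peg3 were named after their values were seen. Some items of the regulator list are counted in it but not reported here by name. Alternatives were median scaling, quantile normalization, another pseudocount, no filter, no trend, a minimum difference, the compared groups alone, a replicate block and leaving out each library. No library shared over 0.0203% of its values above 1 RPKM exactly with another. Promoter sequences are from RefSeq GRCm38.p6, with 5 of 5 genes matched by symbol. The HNF4a peak list was not used here, and protein sequences were not used here.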

Additional observations from a re-analysis of the deposited data

Results flagged for a closer look

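The response to loss of FoxA1 and FoxA2 differed between the 2 FoxA3 backgrounds by the test of the difference itself for 3 genes of the chromosomal stretch. The interaction was -0.91 for Alb, -1.67 for Afm and -3.31 for 5830473C10Rik (Albfm1), each lower in the background without FoxA3. The limma adjusted p were 0.017, 5.71e-05 and 9.59e-05. The Alb call was lost without the filter on low values (limma adjusted p = 0.512) but kept when the variance trend was dropped as well. A minimum difference of 1 also ended it. 5830473C10Rik met the filter through no triple null library, and without the filter its limma adjusted p was 0.000842. The route and time of deletion also differ between the backgrounds, so the difference cannot be assigned to FoxA3. Gc and Afp did not pass the interaction test. Dixon's test of single outlying libraries, run on RPKM in 20 sets of 4 libraries, found none; log values were not tested, and 4 values give this test little power.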

How the results depend on the processing

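Alb and Afm kept their direction and passed in the triple null against FoxA3 null, and in the libraries labelled HNF4a null, when any 1 library was left out, with ranges of -1.32 to -1.10 and -1.44 to -1.33 in the former and -1.40 to -1.29 and -1.79 to -1.55 in the latter. Without a filter on low values, Alb kept its value and lost its call in the triple null against FoxA3 null (-1.2, adjusted p = 0.093), the interaction (-0.91, 0.512), against lox (-1.06, 0.140), against Cre alfp (-0.77, 0.258) and in liver (-1.33, 0.0719). When the trend was dropped as well, an alternative chosen after seeing the data, these calls held (adjusted p = 0.000233, 0.0338, 0.000689, 0.00344 and 0.00159).

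A minimum difference of 1 left 933, 274, 784, 1556, 1184, 827 and 1807 passing genes in the 7 comparisons, in the order triple null against FoxA3 null, Cre alfp against lox, interaction, triple null against lox and against Cre alfp, FoxA3 null against lox, and liver. It ended the calls of Gc in the triple null against FoxA3 null (-0.42), of Alb in the interaction (-0.91) and against Cre alfp (-0.77), of Afp against lox (0.52), against Cre alfp (0.32) and in FoxA3 null (0.42), and of Gc in FoxA3 null (0.32). For Afp this holds at a pseudocount of 1; at 0.1 its differences in these 3 comparisons were 1.12, 0.64 and 0.93. On the compared groups alone, Cre alfp against lox gave 380 passing genes and Gc in the triple null -0.42 with adjusted p = 0.0501. Median scaling turned Gc against Cre alfp (-0.02), Gc in liver (-0.17) and Afm in FoxA3 null against lox (-0.01), and ended the Afp call against Cre alfp (0.26). Quantile normalization turned Gc in Cre alfp against lox (0) and in the triple null against lox (0.29), and gave Alb in FoxA3 null against lox a passing 0.75. The exact permutation test of Gc in Cre alfp against lox passed (-0.20). The causes were not tested.

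Gc in FoxA3 null against lox lost its call at 0.32 without a filter, also without the trend, on the compared groups alone and by exact permutation test, at 0.20 under median scaling, and in 6 of 7 leave-one-out fits (0.29 to 0.38). Leaving out 1 library moved the passing counts over 278 to 595 (Cre alfp against lox, lowest without lox 1), 1043 to 1853 (interaction, lowest without lox 1), 2368 to 4540 (FoxA3 null against lox, lowest without lox 2) and 4030 to 6119 (liver, lowest without the control library ATTCCTA). It moved Afp over 0.27 to 0.36 against Cre alfp and 0.36 to 0.48 in FoxA3 null against lox, and 5830473C10Rik over -0.69 to 0.04 in Cre alfp against lox (0.04 without lox 3). In liver, 5830473C10Rik was below the filter without either control library and has no value there. The Gc to Alb ratio in the triple null ranged over 0.67 to 0.92 with an exact permutation p of 0.0571 without any 1 FoxA3 null library.

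Replicate numbers did not pair the libraries: same-numbered deviations correlated at -0.36 to 0.018 in the triple null and FoxA3 null, and at most 0.17 elsewhere. With the replicate block, 3089 genes passed in the triple null against FoxA3 null and Gc in FoxA3 null against lox was 0.32 (adjusted p = 0.0903); the block changed no other call of the 4 genes. No paired analysis was possible in liver because its columns carry barcodes.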
